A study of Homo sapiens with 6 samples.

Results

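Retinal organoids are balls of retinal tissue grown from stem cells, and the cells described here are the neurogenic precursors in them that express ATOH7. They were chosen cell by cell from raw UMI counts (unique molecular identifiers, 1 per captured RNA molecule). A cell was a member if it held at least 2 UMIs of ATOH7 and at most 1 UMI of TOP2A and MKI67 together, the last 2 being genes of dividing cells. Of 43757 kept cells, 591 passed (1.35%), 175 from transplanted and 416 from cultured samples. They are called ATOH7 precursors below. Since ATOH7, TOP2A and MKI67 chose the cells, their levels are given as a description.

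The organoids were grown from the established human embryonic stem cell line WA09 with a CRX-tdTomato reporter, and were at day 113 to 126. Transplanted samples were fragments injected under the retina of normal dogs and recovered 3 days later. Cultured samples were fragments of the same organoid batches, broken up in the same way and kept in a dish for the same 3 days. The experiment was done 3 times (Sets 1, 2 and 3), each giving 1 transplanted and 1 cultured sample. The line is a single line, and the number of organoids and eyes behind each sample is not given in the sources used here.

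ATOH7 is a basic helix-loop-helix transcription factor that retinal progenitors switch on around their last division. In mice it is required for most retinal ganglion cells, and cells with a history of Atoh7 expression also become cones, horizontal cells, amacrine cells and rods. Loss of the gene in people is associated with missing optic nerves. Cells in this state typically pass from Notch-responding, dividing progenitors to postmitotic precursors that carry factors of more than 1 later fate.

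The 6 libraries held between 6850189 and 108222149 UMIs and between 694 and 17899 kept cells. Pairs of libraries shared between 0 and 54 barcodes, at most 1.01% of the smaller library. Set 1 supplied 523 of the 591 ATOH7 precursors (88.5%). Transplanted sample 1 held 171, cultured sample 1 held 352 and cultured sample 2 held 60, while transplanted samples 2 and 3 held 2 each and cultured sample 3 held 4. Comparisons across genes therefore rest on the first 3 of these samples, 583 cells in all, of which transplanted sample 1 and cultured sample 1 belong to the same Set. The median ATOH7 precursor had 4017 UMIs in transplanted sample 1, 3656.5 UMIs in cultured sample 1 and 5628.5 UMIs in cultured sample 2.

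ATOH7 reads were also spread thinly over other cells, which limits what the share of members can mean. In transplanted sample 1, 4.62% of 195 cells with 3 or more retinal pigment epithelium markers met the rule (95% exact binomial interval 2.13 to 8.58%), at a median of 9527 UMIs. In the same library 2.19% of all kept cells met it (interval 1.88 to 2.54%), at a median of 3441 UMIs. After every cell was thinned to 1000 UMIs, with the rule lowered to 1 ATOH7 UMI and none of TOP2A or MKI67, the shares were 0.513% (interval 0.0130 to 2.82%) of the pigment epithelium cells and 2.24% (interval 1.92 to 2.59%) of all kept cells. In cultured sample 1, 0.791% of pigment epithelium cells (interval 0.0959 to 2.83%) and 2.37% of all kept cells (interval 2.15 to 2.60%) met the thinned rule. Cells with 3 or more Müller glia or rod markers also met the thinned rule. In transplanted sample 1 the shares were 1.34% of Müller-marker and 0.901% of rod-marker cells. In cultured sample 1 they were 2.28% of Müller-marker and 2.43% of rod-marker cells, and in cultured sample 2 they were 0.658% and 0.405%, against 0.563% of all kept cells. Rod-marker cells of cultured sample 1 had 47.0 CPM (counts scaled to an equal total per cell group) of ATOH7, against 35.4 CPM in all its kept cells. Summed over cells, ATOH7 stood at 16.0 CPM in the pigment epithelium cells of transplanted sample 1, against 33.8 CPM in all its kept cells. How many members hold ATOH7 RNA from outside the cell was not tested.

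The share of ATOH7 precursors was not distinguishable between transplanted and cultured samples, and both samples of Set 1 stood above those of Sets 2 and 3. They made up 2.19%, 0.288% and 0.0415% of kept cells in transplanted samples 1, 2 and 3, against 1.97%, 0.563% and 0.212% in cultured samples 1, 2 and 3. The means were 0.840% ± 1.18 in transplanted and 0.914% ± 0.928 in cultured samples (SD, n = 3 each), a difference of -0.07 percentage points (exact permutation test, two-sided, p = 0.90, where 0.10 is the smallest p possible). The groups overlapped, and the difference was 0.22 points in Set 1, -0.28 in Set 2 and -0.17 in Set 3. Without transplanted sample 2, transplanted sample 3 or cultured sample 1 the difference of the means was positive, at 0.20, 0.32 and 0.45 points, and without transplanted sample 1 it was -0.75. Thinned to 1000 UMIs, the shares were 2.24%, 0.144% and 0.125% in transplanted samples 1, 2 and 3, against 2.37%, 0.563% and 0.318% in cultured samples 1, 2 and 3. Cultured samples supplied 70.4% of the members, and kept cells numbered 694 to 7809 per transplanted sample and 1885 to 17899 per cultured sample.

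**Figure D1:**
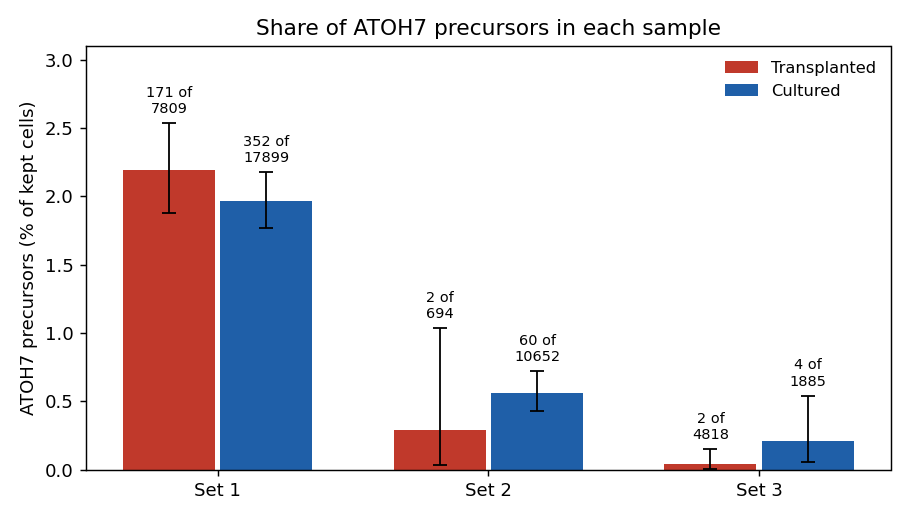
Share of kept cells that were ATOH7 precursors (y axis, percent) in each sample, grouped by Set on the x axis, with transplanted samples in red and cultured samples in blue. Error bars are 95% exact binomial intervals, which cover counting error only, and the numbers above are members of kept cells. Both samples of Set 1 sit near 2%, and the samples of Sets 2 and 3 lie at or below 0.563%.

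ATOH7 was also present in cells that were still dividing. Cells with at least 2 UMIs of ATOH7 and at least 2 of TOP2A plus MKI67 numbered 52, 219 and 49 in transplanted sample 1, cultured sample 1 and cultured sample 2. They were 23.3%, 38.4% and 45.0% of all cells with 2 or more ATOH7 UMIs in those samples. The ATOH7-positive dividing cells had medians of 6489.5, 7209 and 50950 UMIs, deeper than the ATOH7 precursors in each sample, and the shares at equal depth were not tested.

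The first comparison set the ATOH7 precursors against dividing cells, taken as cells with at least 2 UMIs of TOP2A plus MKI67 and at most 1 of ATOH7. Counts were summed per sample and cell group, and edgeR's quasi-likelihood test was fitted with the sample as a term, so that each library is compared with itself. Of 12979 genes tested, 883 were higher (6.8%) and 1237 were lower (9.53%) in ATOH7 precursors at a Benjamini-Hochberg adjusted p under 0.05, in all 16.3%. Dropping the sample term left 0 genes called by edgeR (829 had an unadjusted p under 0.05). DESeq2 with the term called 1059. Dividing cells of cultured sample 2 were deep, with a median of 32161 UMIs, and leaving out all cells over 20000 UMIs gave 1425 called genes.

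The 4 markers named for these cells beside ATOH7 were each higher in ATOH7 precursors than in dividing cells of all 3 samples. They had been picked from earlier results of these data, so their changes are given with a standard error and no p. CLDN5 encodes a tight junction protein best known from blood vessels (chromosome 22 of GRCh38, 19523024 to 19527545, minus strand). It stood at 278, 184 and 92.7 CPM in ATOH7 precursors of transplanted sample 1, cultured sample 1 and cultured sample 2, against 29.6, 34.8 and 11.8 CPM in their dividing cells. Every precursor value lay above every dividing value, and the log2 change was 2.79 ± 0.14. SSTR2, a somatostatin receptor (chromosome 17, 73165012 to 73176633, plus strand), had 115, 88.6 and 66.5 CPM in ATOH7 precursors, against 19.8, 29.5 and 15.4 CPM in dividing cells, a log2 change of 1.99 ± 0.16.

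NEUROD4, a neurogenic helix-loop-helix factor downstream of the proneural genes (chromosome 12, 55019945 to 55030014, plus strand), had 372, 428 and 298 CPM in ATOH7 precursors, against 97.9, 185 and 124 CPM in dividing cells. Its log2 change was 1.42 ± 0.12. IGFBP5 binds insulin-like growth factors outside the cell (chromosome 2, 216672105 to 216695525, minus strand) and was less even. It had 341, 430 and 499 CPM in ATOH7 precursors, against 253, 143 and 170 CPM in dividing cells, a log2 change of 1.17 ± 0.33. The difference was smallest in transplanted sample 1, where dividing cells had the most IGFBP5. For ATOH7 itself (chromosome 10, 68230624 to 68232103, minus strand), which chose the cells, the levels were 681, 604 and 269 CPM in ATOH7 precursors, against 3.46, 10.7 and 1.57 CPM in dividing cells.

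Proneural factors of the ATOH7 and NEUROD4 family bind E-boxes, the 6-letter motif CANNTG. The 250 bases before the RefSeq start of both genes are printed because the motif stands in each and because ATOH7 and NEUROD4 are the pair of such factors among the markers. The sequences are from RefSeq on GRCh38.p14, read 5′ to 3′ on the strand of the gene, with CANNTG in capitals. ATOH7 is the minus strand of chr10:68232114-68232363 and NEUROD4 the plus strand of chr12:55019724-55019973.
ATOH7: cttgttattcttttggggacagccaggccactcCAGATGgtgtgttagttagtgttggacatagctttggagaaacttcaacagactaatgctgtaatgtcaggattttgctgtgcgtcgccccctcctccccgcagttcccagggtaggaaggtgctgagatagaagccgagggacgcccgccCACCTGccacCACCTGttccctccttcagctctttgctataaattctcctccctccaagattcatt
NEUROD4: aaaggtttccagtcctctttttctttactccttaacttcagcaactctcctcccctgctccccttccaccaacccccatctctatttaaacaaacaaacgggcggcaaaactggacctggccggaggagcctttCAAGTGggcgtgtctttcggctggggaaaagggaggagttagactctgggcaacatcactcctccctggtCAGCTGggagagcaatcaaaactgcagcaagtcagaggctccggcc
The ATOH7 window holds 3 such motifs and the NEUROD4 window 2, while those of SSTR2 and IGFBP5 hold 0. The motif reads the same on both strands, and 61.8% of 35116 promoter windows of this length hold at least 1. CAGCTG, the form in the NEUROD4 window, stands in 14.0% of them and may lie within a CANNTG match by construction. A match is a stretch of letters and shows no binding.

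**Figure D2:**
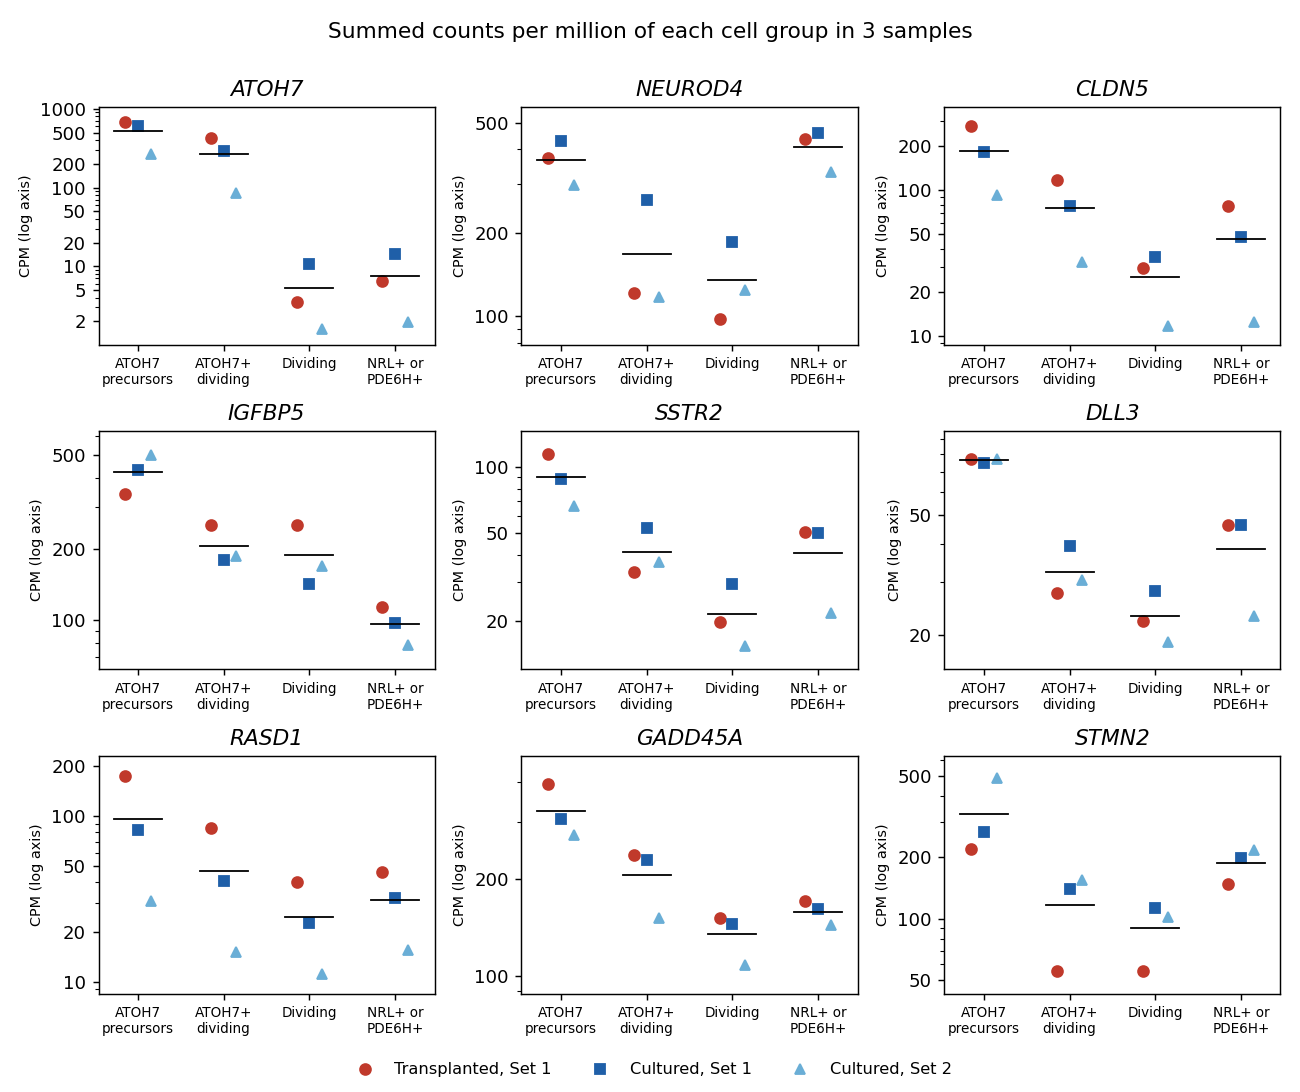
Level of 9 genes (y axis, CPM on a log axis) in ATOH7 precursors, ATOH7-positive dividing cells, other dividing cells and NRL- or PDE6H-positive cells (x axis, left to right), with 1 point for each of 3 samples and a black line at their mean. CLDN5, SSTR2, DLL3, RASD1 and GADD45A are highest in ATOH7 precursors in each sample, whereas NEUROD4 is as high or higher in NRL- or PDE6H-positive cells.

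Beyond the markers and DLL3, the genes that follow had the largest rises against dividing cells among those with a mean of at least 50 CPM in ATOH7 precursors. RASD1, a small Ras-like GTPase, averaged 95.8 ± 73.2 CPM in ATOH7 precursors and 24.4 ± 14.3 CPM in dividing cells (SD, n = 3 each), a log2 change of 1.86 ± 0.14 (edgeR's quasi-likelihood test, Benjamini-Hochberg adjusted p = 5.38e-10). STMN2, a microtubule regulator of growing axons, rose by 1.78 ± 0.17 on the log2 scale and TAGLN3, a neuronal actin-binding protein, by 1.66 ± 0.14. CITED4, a transcriptional coactivator, rose by 1.56 ± 0.15. GABBR2, a subunit of the GABA-B receptor, and KCNK3, a potassium leak channel, both rose by 1.54, and TP53INP2, C11orf96 and VXN rose by 1.43 to 1.51. Each of these was higher in 3 of 3 samples.

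The 12 largest falls that met the rule for named genes were genes that dividing cells express, most of them for mitosis. They were DLGAP5, PBK, SPC25, GTSE1, CDKN3, NUF2, HIST1H1B, SGO2, PRC1, CENPM, PTTG1 and CENPW, with log2 changes between -3.60 and -2.51. DLGAP5, a mitotic spindle protein, averaged 8.09 ± 9.92 CPM in ATOH7 precursors and 99.1 ± 77.3 CPM in dividing cells. These genes travel with TOP2A and MKI67, which set the groups apart, so their falls describe the gate. For the same reason the lists of S-phase and mitotic genes were not tested here. All 20 S-phase genes were lower in ATOH7 precursors, by a median of -1.25 on the log2 scale, and all 21 mitotic genes by -3.47.

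Neurogenic transcription factors as a group were higher in ATOH7 precursors than in dividing cells. Of 14 tested, 12 rose, NEUROD4 among them, and 1 fell, with a median log2 change of 1.12 against 0.00 over all genes. NHLH1, a helix-loop-helix factor of newborn neurons, rose by 2.18 ± 0.28 (edgeR's quasi-likelihood test, Benjamini-Hochberg adjusted p = 3.44e-06). SRRM4, a splicing factor of neurons, rose by 1.13 ± 0.12, and HES6, which opposes HES1, by 0.83 ± 0.11 with levels of 644, 828 and 648 CPM against 312, 559 and 320 CPM in dividing cells. NEUROG2 and OLIG2 were too low to enter this comparison.

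Genes of the Notch pathway moved in both directions. Of 22 genes of the pathway, 5 rose (DLL3, MFNG, DLL4, MIB1 and RBPJ) and 5 fell (HES1, NOTCH2, JAG1, NOTCH3 and NRARP), with a median log2 change of 0.10. DLL3, a Notch ligand-like protein that acts within the cell expressing it, had 77.4, 74.9 and 77.4 CPM in ATOH7 precursors, against 22.1, 28.0 and 18.9 CPM in dividing cells. The groups did not overlap, and DLL3 rose by 1.69 ± 0.14 (edgeR's quasi-likelihood test, Benjamini-Hochberg adjusted p = 3.49e-09). MFNG, a glycosyltransferase that modifies Notch receptors, rose by 2.50 ± 0.28. It had 4.43, 5.17 and 1.46 CPM in dividing cells. MFNG passed the filter on low counts only with counts of ATOH7 precursors, so its rise is a description. HES1, a repressor that Notch signalling induces, fell by 0.89, with 411, 450 and 61.0 CPM in ATOH7 precursors, against 668, 781 and 142 CPM in dividing cells. The receptor NOTCH2 fell by 1.09. HES5, another Notch target, did not pass (0.18 ± 0.12, Benjamini-Hochberg adjusted p = 0.34 in edgeR's quasi-likelihood test) at 961, 806 and 105 CPM in ATOH7 precursors, against 939, 754 and 64.7 CPM in dividing cells.

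Many progenitor genes were lower in ATOH7 precursors than in dividing cells. Of 22 tested, 12 fell and 0 rose, with a median log2 change of -0.44. The reference cells were chosen by TOP2A and MKI67, and how far these falls describe that gate was not tested. SFRP2, a secreted Wnt inhibitor of retinal progenitors, averaged 433 ± 143 CPM in ATOH7 precursors and 732 ± 71.2 CPM in dividing cells, and fell by 0.83 on the log2 scale. CCND1, the cyclin of retinal progenitors, fell by 0.73, SOX2 by 0.62 and ID3, an inhibitor of helix-loop-helix factors, by 0.62. Immediate early genes fell as well, 10 of 18 with 0 rising. CCN1, a secreted matrix protein of that list, fell by 1.08 and EGR1 by 0.39.

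Genes that hold cells out of the cycle were mixed, and 17 were tested. GADD45A, a stress and growth arrest protein, had 393, 307 and 274 CPM in ATOH7 precursors, against 151, 145 and 108 CPM in dividing cells, and rose by 1.23 ± 0.10 (edgeR's quasi-likelihood test, Benjamini-Hochberg adjusted p = 1.51e-09). CDKN1C, the cyclin-dependent kinase inhibitor p57, rose by 0.86 ± 0.11. RBL1, CDKN2C and PLAGL1 fell, the first of which is a retinoblastoma-like protein that dividing cells express. Cytoskeleton and axon genes rose in 14 of 25 cases and fell in 1 (ROBO1), with a median of 0.46. TUBB3, a neuronal tubulin, averaged 675 ± 90.5 CPM in ATOH7 precursors and 379 ± 42.6 CPM in dividing cells, a log2 change of 0.79 ± 0.10.

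Photoreceptor genes were broadly higher in ATOH7 precursors than in dividing cells. Of 17 tested, 14 rose and 0 fell, with a median log2 change of 0.81. OTX2, which starts the photoreceptor and bipolar programme, had 299, 309 and 324 CPM in ATOH7 precursors, against 85.4, 146 and 185 CPM in dividing cells. The groups did not overlap, and OTX2 rose by 1.18 ± 0.16 (edgeR's quasi-likelihood test, Benjamini-Hochberg adjusted p = 0.00101). PRDM1, which OTX2 induces and which holds back the bipolar fate in mice, rose by 1.11 ± 0.19 and CRX, the photoreceptor factor behind the reporter, by 0.63 ± 0.17. RXRG, a nuclear receptor of young cones, rose by 0.89 ± 0.14, and RAX2, a homeobox factor of photoreceptors, by 1.06 ± 0.15.

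Some factors of horizontal, amacrine and ganglion cells were higher in ATOH7 precursors. Of 13 genes of the horizontal and amacrine list 6 rose and 2 fell. PTF1A, which drives horizontal and amacrine fates, had 14.9, 13.2 and 8.72 CPM in ATOH7 precursors, against 3.66, 5.67 and 0.337 CPM in dividing cells (log2 change 1.94 ± 0.47, Benjamini-Hochberg adjusted p = 0.0121 in edgeR's quasi-likelihood test). PTF1A and EBF1 (0.770, 1.43 and 7.87 CPM in dividing cells), both among the 6, passed the filter on low counts only with counts of ATOH7 precursors. Their rises are a description. ONECUT2 rose by 2.17 ± 0.21 and ONECUT1 by 1.66 ± 0.22, factors of horizontal cells and early precursors. FOXN4, which acts upstream of PTF1A in dividing progenitors, went the other way and fell by 1.67 on the log2 scale, to 3.72, 4.0 and 2.18 CPM in ATOH7 precursors, against 11.2, 11.5 and 9.10 CPM in dividing cells. GAD2, which makes GABA, fell by 1.28 on the log2 scale. MEIS2, the most abundant of the 6 that rose, had 146, 185 and 577 CPM in ATOH7 precursors, against 79.1, 126 and 364 CPM in dividing cells (log2 change 0.65 ± 0.10).

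POU4F2, the ganglion cell factor that ATOH7 induces in mice, had 12.7, 9.72 and 14.2 CPM in ATOH7 precursors of transplanted sample 1, cultured sample 1 and cultured sample 2. In dividing cells it had 0 counts in transplanted sample 1, 0.415 CPM in cultured sample 1 and 0.0749 CPM in cultured sample 2. Behind the precursor values stood 17, 17 and 13 counts, and the log2 change was 5.72 ± 0.56 (edgeR's quasi-likelihood test, Benjamini-Hochberg adjusted p = 8.49e-08). A change fitted to counts this low depends on the prior count, so its size is approximate. POU4F1 and POU4F3, the paralogs of more mature ganglion cells, had 0 counts in ATOH7 precursors of all 3 samples. Of 12 ganglion genes tested, 4 rose (POU4F2, SNCG, ELAVL4 and L1CAM) and 1 fell (RBPMS). Both POU4F2 and ELAVL4 were near 0 in dividing cells and passed the filter on low counts through ATOH7 precursors. Their rises were thus set in advance, and they add no support to the count of the list. SNCG rose by 2.36 ± 0.30 and ELAVL4, a neuronal RNA-binding protein, by 3.92 ± 0.61, both at means under 20 CPM.

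Relatives of the markers were set beside them. Of 14 insulin-like growth factor genes tested against dividing cells, 1 rose (IGFBPL1, by 1.02 ± 0.16) and 3 fell (IGFBP2, IGFBP7 and IGFBP6), with a median log2 change of -0.36. Of 15 claudin and junction genes, CLDN5 was higher, and the median over the list was -0.06. SST, the ligand of SSTR2, was too low to test.

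**Figure D3:**
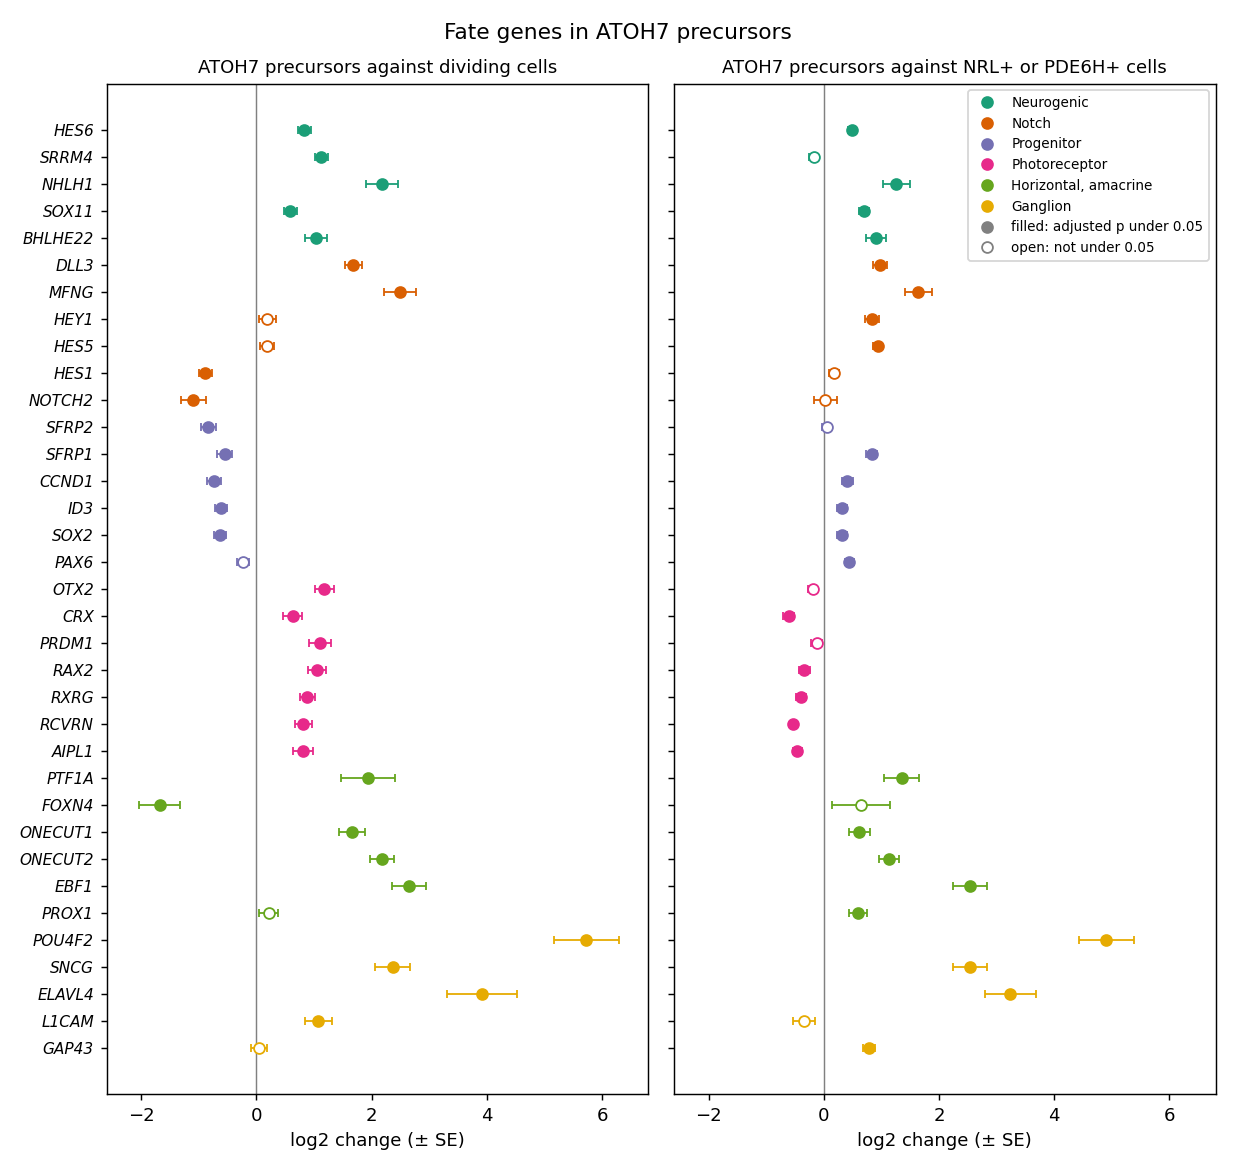
Log2 change of fate genes (x axis, point with its standard error) in ATOH7 precursors against dividing cells (left panel) and against NRL- or PDE6H-positive cells (right panel), 1 gene per row, coloured by list. Filled points had an adjusted p under 0.05 in edgeR's quasi-likelihood test. Progenitor genes lie left of 0 in the left panel and at or right of it in the right panel, photoreceptor genes the reverse, and the low-level genes POU4F2, SNCG and ELAVL4 lie far right in both.

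The second comparison set the ATOH7 precursors against cells with at least 2 UMIs of NRL or of PDE6H, with at most 1 ATOH7 UMI and at most 1 of TOP2A plus MKI67. NRL is the rod fate factor and PDE6H a cone phosphodiesterase subunit. The 2 cell sets are not cleanly separate. Of the ATOH7 precursors, 99 of transplanted sample 1 (57.9%), 192 of cultured sample 1 (54.5%) and 22 of cultured sample 2 (36.7%) themselves held 2 or more UMIs of NRL or PDE6H. Of 15732 genes tested, 516 were higher (3.28%) and 531 were lower (3.38%) in ATOH7 precursors at a Benjamini-Hochberg adjusted p under 0.05 in edgeR's quasi-likelihood test, in all 6.66%. Dropping the sample term left 0 genes called by edgeR (225 had an unadjusted p under 0.05), DESeq2 called 301, and leaving out transplanted sample 1, cultured sample 1 or cultured sample 2 gave 702, 664 or 607. With members below 2 UMIs of both NRL and PDE6H only, an alternative added after the data were seen, 1414 genes were called, 468 higher and 946 lower.

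Against photoreceptor-gated cells the markers split. IGFBP5 had 341, 430 and 499 CPM in ATOH7 precursors, against 114, 97.0 and 78.5 CPM in NRL- or PDE6H-positive cells, a log2 change of 2.13 ± 0.10. CLDN5 had 78.3, 48.0 and 12.5 CPM in the NRL- or PDE6H-positive cells and was higher in ATOH7 precursors by 2.09 ± 0.10, and SSTR2 was higher by 1.14 ± 0.11. NEUROD4 was not: it had 372, 428 and 298 CPM in ATOH7 precursors, against 435, 459 and 331 CPM in NRL- or PDE6H-positive cells, a log2 change of -0.16 ± 0.08, and 0.05 when cells over 20000 UMIs were left out. NEUROD4 therefore sets ATOH7 precursors apart from dividing cells but not from photoreceptor-gated cells.

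Among genes with a mean of at least 50 CPM in ATOH7 precursors, the largest rises here included 2 neuropeptide genes. GAL, the neuropeptide galanin, had 102, 123 and 57.8 CPM in ATOH7 precursors, against 27.9, 45.2 and 13.7 CPM in NRL- or PDE6H-positive cells, and rose by 1.72 ± 0.12 (edgeR's quasi-likelihood test, Benjamini-Hochberg adjusted p = 4.12e-46). Dividing cells had 205, 96.1 and 30.3 CPM of GAL, and in transplanted sample 1 these lay above the ATOH7 precursors. PTH2, a peptide of the parathyroid hormone family, rose by 1.14 ± 0.13, RASD1 by 1.57 ± 0.12, CITED4 by 1.39 ± 0.12, TAGLN3 by 1.20 ± 0.10 and NKAIN4 by 1.17 ± 0.13. PAK3, a kinase of the neuronal cytoskeleton, rose by 1.04 ± 0.11 and GADD45A by 1.02 ± 0.08. The unnamed transcript AL139246.5 rose by 1.82 ± 0.13.

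The largest falls against photoreceptor-gated cells included genes of the photoreceptor outer segment and matrix. Such genes travel with NRL and PDE6H, which chose the reference cells, so these falls describe the gate. RP1, a protein of the outer segment axoneme, had 73.0, 162 and 455 CPM in ATOH7 precursors, against 151, 273 and 818 CPM in NRL- or PDE6H-positive cells, and fell by 0.88 on the log2 scale (edgeR's quasi-likelihood test, Benjamini-Hochberg adjusted p = 1.84e-21). It was lower in 3 of 3 samples, although the levels differed so much between Sets that the groups overlapped. IMPG2, a proteoglycan of the matrix around photoreceptors, fell by 0.87 and EYS, a retinal matrix protein, by 0.84. PCA3, a noncoding RNA, fell by 1.64, and DOK6, AL161757.4, CPLX4, CNTN1, FSTL5, CABP5, LINC02208 and PALMD fell by 0.84 to 0.98.

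Neurogenic, Notch and progenitor genes were in part higher in ATOH7 precursors than in photoreceptor-gated cells. Of 17 neurogenic factors 8 rose and 1, NEUROD1, fell, with a median log2 change of 0.48 against -0.03 over all genes. NEUROG2, among the 8, passed the filter on low counts only with counts of ATOH7 precursors and adds no support to that count. SOX11 rose by 0.70 ± 0.09 (edgeR's quasi-likelihood test, Benjamini-Hochberg adjusted p = 8.79e-12) and HES6 by 0.49 ± 0.07. Of 22 Notch genes 8 rose and 0 fell, among them HES5 (0.93 ± 0.08), DLL3 (0.98 ± 0.12), HEY1 (0.84 ± 0.12) and MFNG (1.64 ± 0.23), with a median of 0.21. HES1 did not pass (0.18 ± 0.09).

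Of 22 progenitor genes 8 rose and 0 fell, by a median of 0.17, the strongest being SFRP1, a secreted Wnt inhibitor (0.83 ± 0.10). PAX6 rose by 0.45 ± 0.09, and CCND1 by 0.41 ± 0.09 and ID3 by 0.32 ± 0.08. Of 18 immediate early genes 9 rose and 0 fell, FOSB by 0.66 ± 0.09. Among mitotic genes 4 of 19 rose: CCNB2 (1.68 ± 0.28), UBE2C (1.06 ± 0.25), BIRC5 (0.76 ± 0.24) and CENPF (0.68 ± 0.15), all at means under 40 CPM. The median log2 change of the progenitor list was thus -0.44 against dividing cells and 0.17 against photoreceptor-gated cells, and that of the immediate early list -0.37 and 0.36.

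Photoreceptor genes not used by the gate went the other way. They travel with NRL and PDE6H, which chose the reference cells, so their falls describe the gate. Of 12 tested 7 fell and 1, MEIS1, rose, with a median of -0.39. CRX had 81.2, 72.6 and 165 CPM in ATOH7 precursors, against 115, 123 and 239 CPM in NRL- or PDE6H-positive cells, and fell by 0.61 on the log2 scale (edgeR's quasi-likelihood test, Benjamini-Hochberg adjusted p = 5.00e-08). RCVRN, the calcium sensor recoverin, fell by 0.53 and AIPL1, a chaperone of the photoreceptor phosphodiesterase, by 0.46. OTX2 (-0.19 ± 0.08) and PRDM1 (-0.12 ± 0.09) did not pass, with OTX2 at 299, 309 and 324 CPM in ATOH7 precursors, against 307, 374 and 384 CPM in NRL- or PDE6H-positive cells.

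Some factors of other early fates were higher than in photoreceptor-gated cells. Of 15 ganglion genes 7 rose and 0 fell, of 17 horizontal and amacrine genes 7 rose and 0 fell, and of 12 bipolar genes 3 rose and 1 fell. Over all genes tested, 3.28% were higher and 3.38% lower. POU4F2 had 0.176, 1.03 and 0.125 CPM in NRL- or PDE6H-positive cells, from 4, 25 and 7 counts, and was higher in ATOH7 precursors by 4.90 ± 0.48 (edgeR's quasi-likelihood test, Benjamini-Hochberg adjusted p = 9.85e-22). ISL1, a factor of ganglion, amacrine and bipolar cells, was higher by 3.50 ± 0.57 at a mean of 6.55 ± 5.16 CPM in ATOH7 precursors. POU4F2, ISL1 and ELAVL4 (0.484, 1.73 and 0.768 CPM) were near 0 in NRL- or PDE6H-positive cells and passed the filter on low counts through ATOH7 precursors. Their rises were thus set in advance and are a description. They are among the 7 ganglion genes that rose, and ISL1 is also among the 3 bipolar genes. They add no support to these counts. PTF1A rose by 1.35 ± 0.30, EBF1 by 2.55 ± 0.29 and ONECUT2 by 1.14 ± 0.17. NEUROG2, a proneural factor upstream of ATOH7, rose by 2.20 ± 0.67 on 5, 9 and 0 counts and was higher in 2 of 3 samples. NEUROG2 had 0.440, 1.27 and 0.232 CPM in NRL- or PDE6H-positive cells. Both EBF1 and NEUROG2 passed the filter on low counts only with counts of ATOH7 precursors, so their rises are a description. EBF1 is among the 7 horizontal and amacrine genes that rose and adds no support to that count.

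Markers of other retinal and non-retinal cells were summed in the same way, since RNA from other cells or doublets could carry genes into a gate on few UMIs. Of 8 endothelial markers, looked at because CLDN5 is best known from vessels, CDH5, VWF and EMCN had 0 counts in ATOH7 precursors of all 3 samples, and were also at or near 0 in dividing and NRL- or PDE6H-positive cells (at most 0.385 CPM). TEK and ERG had 0 counts in ATOH7 precursors of transplanted sample 1. PECAM1, another of the 8, had 2, 2 and 11 counts in ATOH7 precursors (1.49, 1.14 and 11.99 CPM), against 0.484, 0.288 and 0.911 CPM in NRL- or PDE6H-positive cells, and rose by 2.93 ± 0.65 against them (edgeR's quasi-likelihood test, Benjamini-Hochberg adjusted p = 0.000307). Without cultured sample 2 the change was 1.77 and the call was lost (adjusted p = 0.601). PECAM1 was near 0 in NRL- or PDE6H-positive cells and passed the filter on low counts through ATOH7 precursors. Its rise was thus set in advance and is a description. In ATOH7-positive dividing cells PECAM1 had 9.21, 1.68 and 5.73 CPM. The 8 endothelial markers summed to 84.1, 90.4 and 148 CPM in ATOH7 precursors, against 171, 118 and 215 CPM in dividing cells, most of it FLT1 and KDR. The 8 pigment epithelium markers summed to 2093, 1135 and 149 CPM in ATOH7 precursors, against 1562, 681 and 755 CPM in dividing cells. TTR, a secreted transport protein, led these sums in both samples of Set 1 and SERPINF1 led it in ATOH7 precursors of cultured sample 2. In NRL- or PDE6H-positive cells they summed to 685, 845 and 279 CPM. RPE65 fell against dividing cells (-1.96 ± 0.28) and was higher than in NRL- or PDE6H-positive cells (2.26 ± 0.42), with 23.8, 1.14 and 2.18 CPM in ATOH7 precursors. With members below 2 UMIs of NRL and PDE6H only, the second change turned to -0.57. Without transplanted sample 1 both calls of RPE65 were lost, with changes of -0.72 (adjusted p = 0.714, edgeR) and 0.87 (adjusted p = 0.822, edgeR). The part that these RNAs play in the results was not tested.

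OPN1SW, the blue cone opsin, had 0 counts in ATOH7 precursors of all 3 samples. The myeloid markers summed to 7.45, 1.14 and 2.18 CPM in ATOH7 precursors, with TYROBP at 5 counts in transplanted sample 1 and 0 in both cultured samples. The Müller glia markers summed to 1188, 1349 and 1110 CPM in ATOH7 precursors, against 1704, 1653 and 1617 CPM in dividing cells and 1070, 1162 and 898 CPM in NRL- or PDE6H-positive cells, most of it SPP1 and CLU, which many retinal cells share. Without the cells of highest doublet score, 81 of which were members of the first 3 samples, 2379 genes were called against dividing cells and 1040 against NRL- or PDE6H-positive cells.

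Single ATOH7 precursors most often carried OTX2 or CRX, and a minority carried factors of horizontal, amacrine or ganglion cells. At least 1 UMI of OTX2 or CRX was present in 72.5%, 70.5% and 81.7% of them in transplanted sample 1, cultured sample 1 and cultured sample 2. At least 1 UMI of PTF1A, TFAP2A, PRDM13, LHX1 or ONECUT1 was present in 19.9%, 22.4% and 36.7%. POU4F2 was present in 6.43%, 3.13% and 8.33%, and 19.9%, 23.6% and 8.33% held none of these factors. Of the cells with a horizontal or amacrine factor, 67.6%, 82.3% and 95.5% also held OTX2 or CRX, against 73.7%, 67.0% and 73.7% of the other ATOH7 precursors. Members of cultured sample 2 were also the deepest, and the part of depth or of RNA from outside the cell in these shares was not tested.

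Depth matters for how these shares compare with other cells. NEUROD4 was found in 74.9%, 70.2% and 75.0% of ATOH7 precursors, and after thinning to 1000 UMIs in 40.9%, 36.4% and 38.3%. After the same thinning it was found in 7.24%, 14.8% and 10.7% of dividing cells. OTX2 was found after thinning in 30.4%, 32.4% and 38.3% of ATOH7 precursors, against 31.6%, 34.6% and 36.8% of NRL- or PDE6H-positive cells, with each pair close. CLDN5 was found after thinning in 31.0%, 21.0% and 25% of ATOH7 precursors, against 4.07%, 3.55% and 1.48% of dividing cells and 10.2%, 5.29% and 1.79% of NRL- or PDE6H-positive cells.

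**Figure D4:**
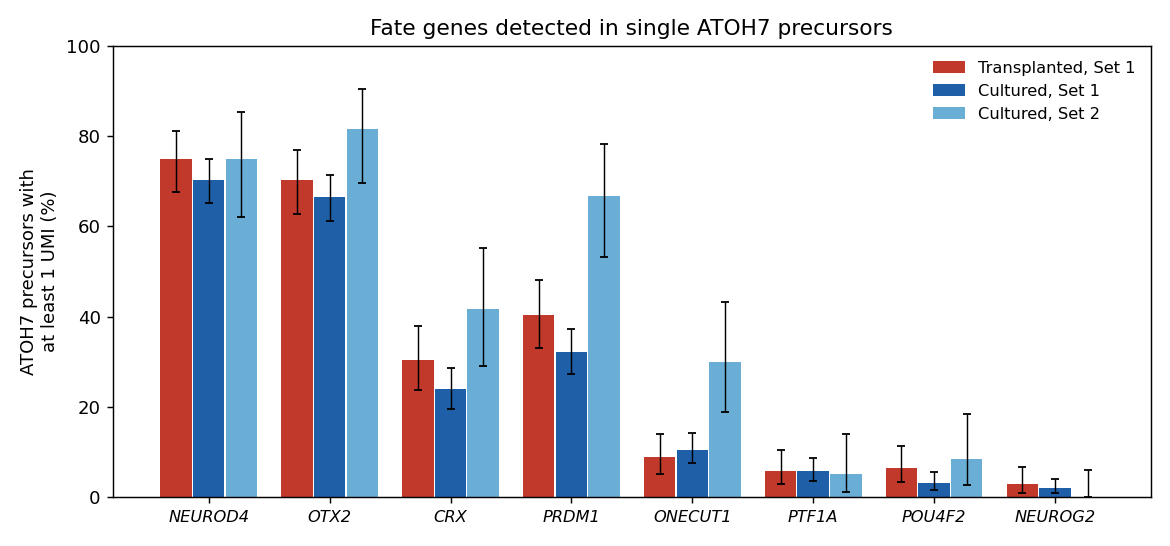
Share of ATOH7 precursors with at least 1 UMI of each gene (y axis, percent) for 8 genes along the x axis, with transplanted sample 1 in red, cultured sample 1 in dark blue and cultured sample 2 in light blue. Error bars are 95% exact binomial intervals. NEUROD4 and OTX2 are found in most cells, CRX and PRDM1 in fewer, and ONECUT1, PTF1A, POU4F2 and NEUROG2 in a minority.

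The POU4F2-positive members, looked at after the values above had been seen, were 11, 11 and 5 cells. They were 61.1% of the 18 cells with POU4F2 in transplanted sample 1, 15.1% of 73 in cultured sample 1 and 16.7% of 30 in cultured sample 2. STMN2 was present in 9, 10 and 5 of them, which is 81.8%, 90.9% and 100% of them, against 40.0%, 47.5% and 50.9% of the other ATOH7 precursors. SNCG was present in 36.4%, 45.5% and 60.0% of them, against 3.75%, 2.93% and 10.9% of the others. CNTN2, an adhesion protein of growing axons, was present in 63.6%, 72.7% and 60.0% of them, against 10.6%, 5.57% and 12.7%. OTX2 was present in 8, 4 and 0 of them, 72.7%, 36.4% and 0% against 70.0%, 67.4% and 89.1% of the others, so its direction was not the same in every sample. These are descriptions of few cells, without a test.

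The threshold on ATOH7 was looked at from both sides. Cells with 1 ATOH7 UMI, just outside the rule, had 112, 97.2 and 22.0 CPM of CLDN5 in transplanted sample 1, cultured sample 1 and cultured sample 2. Cells with 2 UMIs, just inside, had 204 and 130 CPM in transplanted sample 1 and cultured sample 1, cells with 3 to 4 had 217, 194 and 139 CPM, and cells with 5 or more had 362, 319 and 142 CPM. CLDN5 therefore increased with each class in transplanted sample 1 and cultured sample 1. In cultured sample 2 it was higher than at 1 UMI but close between the last 2 classes, which held 20 and 21 cells. The classes differed in depth, with medians of 10606, 5462 and 5057 UMIs at 1, 3 to 4 and 5 or more in cultured sample 2. The part of depth was not tested. The class of 2 UMIs held fewer than 20 cells in cultured sample 2 and is not given there.

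IGFBP5 followed the same order, with 148, 224 and 102 CPM at 1 ATOH7 UMI and 415, 513 and 775 CPM at 5 or more. GADD45A stood at 166, 229 and 164 CPM at 1 ATOH7 UMI and at 474, 421 and 330 CPM at 5 or more. NEUROD4 did not increase, with 441, 482 and 325 CPM at 1 UMI and 352, 355 and 319 CPM at 5 or more. NEUROD1, a related factor of differentiating photoreceptors, had 703, 586 and 358 CPM at 1 UMI and 513, 495 and 224 CPM at 5 or more, a lower level in each sample. SSTR2 had no steady order in transplanted sample 1, with 83.4, 164, 90.6 and 108 CPM over the classes from low to high, while cultured sample 1 had 76.4, 80.9, 94.4 and 98.3 CPM. CLDN5, IGFBP5 and SSTR2 had been picked as markers of these cells from the same data. Cells of 1 sample are not replicates, and the order is given without a test.

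**Figure D5:**
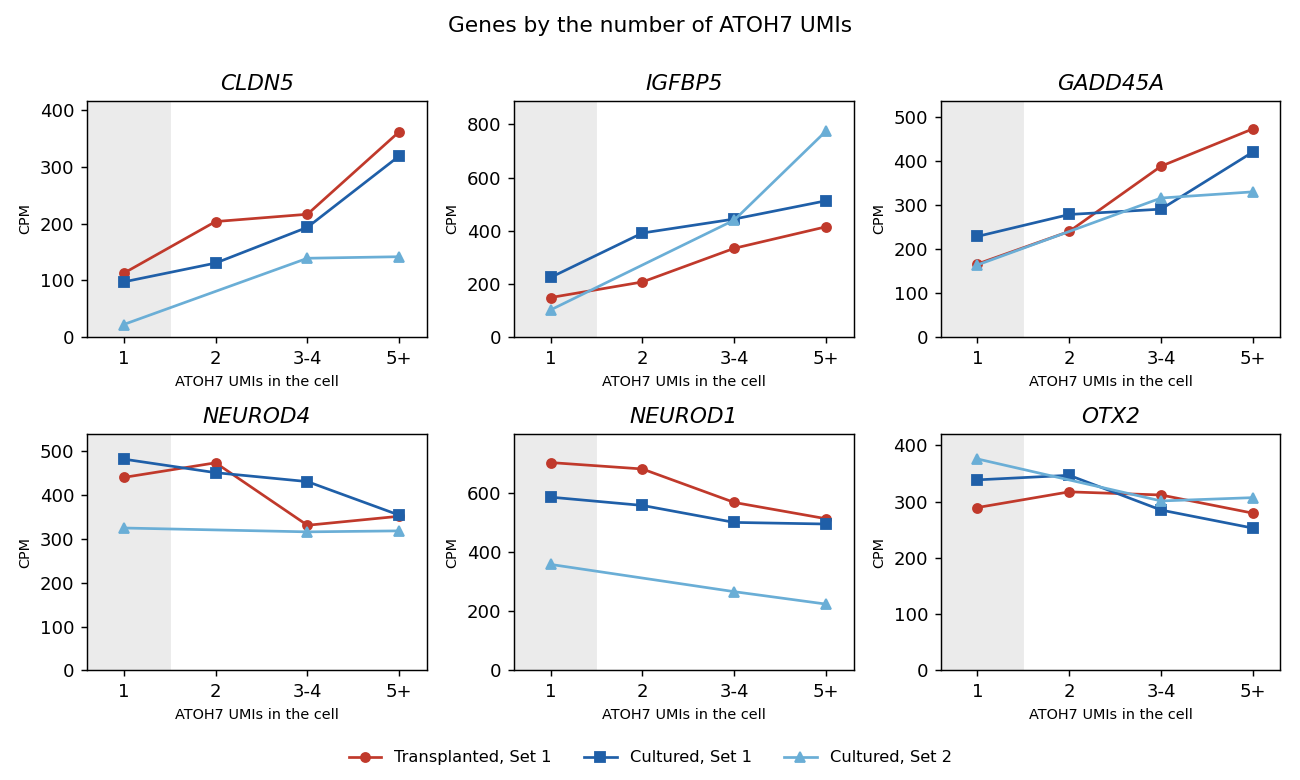
Level of 6 genes (y axis, CPM) in cells grouped by their number of ATOH7 UMIs (x axis, low to high, with the class of 1 UMI outside the rule shaded grey) for 3 samples, each a line. CLDN5, IGFBP5 and GADD45A climb from left to right in each sample, whereas NEUROD4, NEUROD1 and OTX2 stay level or decline.

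The threshold on TOP2A and MKI67 separated levels less sharply. In cultured sample 1, ATOH7-positive cells with 0 UMIs of TOP2A plus MKI67 had 466 CPM of NEUROD4, those with 1 UMI, just inside the rule, had 323 CPM, those with 2 UMIs, just outside, had 267 CPM, and those with 3 or more had 262 CPM. CLDN5 had 209, 113, 128 and 71.1 CPM in the same classes, low to high. HES1 had 412, 556, 520 and 660 CPM. In that sample NEUROD4 was lowest and HES1 highest in the class with the most cycle UMIs. In transplanted sample 1 the classes of 0, 1 and 3 or more had 369, 442 and 132 CPM of NEUROD4 and 276, 320 and 118 CPM of CLDN5, so both were highest in the class of 1. In cultured sample 2 the same classes had 362, 202 and 110 CPM of NEUROD4 and 126, 43.2 and 30.9 CPM of CLDN5. The classes differed in depth, with medians of 5057, 33251 and 64033 UMIs in cultured sample 2, and the part of depth was not tested.

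By value, ATOH7-positive dividing cells lay between ATOH7 precursors and other dividing cells for CLDN5, and above both for FOXN4 and VSX1. CLDN5 had 117, 78.4 and 32.2 CPM in ATOH7-positive dividing cells, above the 29.6, 34.8 and 11.8 CPM of other dividing cells in each sample and below ATOH7 precursors. FOXN4 had 25.3, 13.4 and 15.4 CPM in them, higher than in either ATOH7 precursors or other dividing cells in each sample. VSX1, a bipolar factor, had 81.7, 33.1 and 13.6 CPM, again above ATOH7 precursors (17.1, 17.7 and 9.81 CPM) and other dividing cells (10.0, 8.53 and 4.38 CPM).

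Transplanted and cultured ATOH7 precursors could be set side by side in Set 1 alone, where both samples had enough cells. With 1 sample per group there is no test, and the intervals given cover counting error only. Of 3288 genes with at least 50 CPM in 1 of the samples, 51 were at least 2-fold higher (1.55%) and 72 at least 2-fold lower (2.19%) in the transplanted sample. The 5 genes with the largest excess were LEFTY2, SERPINA3, PMEL, AKR1C2 and H19. SERPINA3, an acute-phase protease inhibitor, had 67.0 CPM in transplanted and 6.86 CPM in cultured ATOH7 precursors, a ratio of 9.77 (95% exact interval 5.32 to 19.6). Its ratio was 30.5 in dividing cells and 15.4 in NRL- or PDE6H-positive cells of the same samples. H19, an imprinted noncoding RNA, had a ratio of 5.24 (interval 3.79 to 7.37), against 7.44 and 8.09 in those cells. Both ratios were thus larger in the other cell groups than in ATOH7 precursors.

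LEFTY2, an inhibitor of Nodal signalling, had a ratio of 15.4 (interval 6.74 to 43.4) in ATOH7 precursors, from 52.9 CPM in transplanted and 3.43 CPM in cultured cells, and 2.70 and 2.38 in dividing and NRL- or PDE6H-positive cells. The value rests on 71 and 6 counts. AKR1C2, an aldo-keto reductase, had a ratio of 5.94 (interval 3.42 to 10.9) in ATOH7 precursors, and 0.265 and 0.634 in the other groups. Whether these ratios differ between cell groups was not tested. The 5 genes with the largest deficit were PCLAF, TFRC, S100A10, CALB1 and CYP1B1, with ratios between 0.176 and 0.200. TFRC, the transferrin receptor, had 10.4 CPM in transplanted and 57.2 CPM in cultured ATOH7 precursors, and its ratios of 0.264 and 0.230 in dividing and NRL- or PDE6H-positive cells were also below 1.

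The marker genes lay within 2-fold between transplanted and cultured ATOH7 precursors of Set 1. The ratio was 1.51 for CLDN5 (interval 1.30 to 1.76), 1.29 for SSTR2 (1.03 to 1.63), 0.869 for NEUROD4 (0.775 to 0.975) and 0.793 for IGFBP5 (0.705 to 0.892). OTX2 (0.967), CRX (1.12), DLL3 (1.03) and HES1 (0.913) had intervals that included 1. Of 13 immediate early genes at this level, 2 were at least 2-fold higher and 0 lower, with a median log2 ratio of 0.72 against -0.17 over all 3288 genes. Of 16 axon and cytoskeleton genes, 0 were at least 2-fold higher and 3 lower, with a median of -0.58. The transplanted sample's ATOH7 precursors had a median of 4.66% mitochondrial UMIs, against 1.73% in the cultured sample's, and a similar gap stood in dividing cells (4.48% against 1.83%).

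The 8 ATOH7 precursors of the other samples are too few for levels. The 2 cells of transplanted sample 2 were very deep, with a median of 114105 UMIs, and held 51 UMIs of NEUROD4, 7 of CLDN5, 31 of IGFBP5, 66 of OTX2 and 4 of POU4F2 together. The 2 cells of transplanted sample 3 held 31 UMIs of NEUROD4, 2 of CLDN5 and 0 of IGFBP5, and the 4 cells of cultured sample 3 held 14, 3 and 15. NEUROD4 and CLDN5 were therefore detected in the ATOH7 precursors of all 6 samples, and IGFBP5 in those of 5. All 4 cells of transplanted samples 2 and 3 also held 2 or more UMIs of NRL or PDE6H, whereas 0 of the 4 cells of cultured sample 3 did.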

How the data were processed

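The deposited matrices hold raw counts (UMIs per gene and barcode), made by the authors with Cell Ranger 6.0.2 for Set 1 and 7.1.0 for Sets 2 and 3, per the file headers. Whether intronic reads were counted is not given in the sources used here. Levels are compared within samples for that reason. Libraries were made with a 10x 3′ kit, per the labels' protocols. Barcodes with at least 1000 UMIs, 500 genes and at most 20% mitochondrial UMIs were kept. The members, gene lists and markers were chosen with earlier results of these data known. Counts were summed per sample and cell group with at least 20 cells in both groups and tested with edgeR 4.0.16 (R 4.3.3, filterByExpr, TMM, robust quasi-likelihood, sample as a term), with p-values adjusted over all genes. The sample term pairs 2 cell groups of 1 library. Fold changes are members over the other cells. A gene near the floor in 1 cell group passed filterByExpr through the other group, so the direction of its change was set in advance. CPM are the summed counts scaled to an equal total. On simulated data the fit recovered 70.6% of 2-fold and 96.3% of 4-fold changes against dividing cells, and 68.9% and 86.6% against NRL- or PDE6H-positive cells. The simulation gave every gene the same spread (dispersion 0.01), so genes that vary more between libraries may be recovered less often. Samples 1 of both groups share a Set, so p-values rest on 3 libraries of 2 experiments. Information on spread is pooled over genes in edgeR, so its p-values and standard errors can understate the spread between libraries. Against NRL- or PDE6H-positive cells CLDN5 had a standard error of 0.097, while its log2 ratio had an SD of 0.541 over the 3 libraries. Scrublet's automatic threshold (Scanpy 1.11.5) called 0 to 2 cells per sample, so doublets were kept and the highest scores removed in an alternative. Named genes are the 12 largest rises and 12 largest falls called with 1 sign in every sample and at least 50 CPM, the fate genes and up to 4 called genes of each list. Intervals cover counting error only. DESeq2 1.42.0 was an alternative. Gene positions are from GENCODE v29. Some genes of the lists are counted but not reported here by name.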

Additional observations from a re-analysis of the deposited data

How the results depend on the processing

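The sign of the difference in the share of ATOH7 precursors depended on the choice, and no alternative could have passed the threshold, since the smallest p is 0.10 for 3 against 3 samples and 0.25 for sign flips over 3 Sets. It was 0.11 percentage points with at least 3 ATOH7 UMIs, and between -0.75 and 0.45 with 1 sample left out, positive without transplanted sample 2 (0.20), transplanted sample 3 (0.32) or cultured sample 1 (0.45). With the Set as a replicate block (sign flips within Sets) the exact permutation p was 0.75. Against dividing cells 2120 genes were called, 1059 with DESeq2, 1203 with at least 3 ATOH7 UMIs, 0 with no replicate block, and 1425 to 1756 with 1 sample left out. Against NRL- or PDE6H-positive cells 1047 were called, 301 with DESeq2, 0 with no replicate block, and 607 to 702 with 1 sample left out (664 without cultured sample 1, 607 without cultured sample 2). Of the called genes 41.7% were higher against dividing cells and 26.1% with no filter on low counts. Against NRL- or PDE6H-positive cells 49.3% were higher, 64.8% with DESeq2, 30.3% with no filter and 33.1% with members below 2 UMIs of NRL and PDE6H. That last choice, and cells up to 20000 UMIs, were added after the data were seen. The filter also moved the median log2 change of all genes, to -0.24 and -0.30. CLDN5 moved to 3.26 against dividing cells with cells up to 20000 UMIs, while SSTR2, NEUROD4 and IGFBP5 moved by less than the spread between samples. Reversed signs of named genes were DLL1 against dividing cells (0.078 in cultured samples only, which is also without transplanted sample 1, and between -0.25 and 0.078 with 1 sample left out), NEUROD4 against NRL- or PDE6H-positive cells (0.054 with cells up to 20000 UMIs) and RPE65 (-0.57 with members below 2 UMIs of NRL and PDE6H). The cause was not tested. The planned test of transplanted against cultured ATOH7 precursors and its alternatives were not run, because only 1 transplanted sample held 10 or more members. No paired analysis was possible because of that.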
